A study of Homo sapiens with 8 samples.

Results

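The genes that set the threshold for apoptosis were followed in HTETOP cells. This human line was made from the fibrosarcoma line HT1080 so that tetracyclines control its topoisomerase II alpha gene, TOP2A. The set held 32 genes: the BCL2 family, caspases, the proteins that work with them at the mitochondrion, and death receptors with their adaptors. Each gene was read from array probe sets annotated to it alone, by current or earlier symbol, and where a gene had several, the one brightest on average across all 8 arrays was used. A probe set is a group of short probes for 1 transcript, and its value is a log2 expression value. This gave values for 31 of the 32 genes, of 19775 genes named on the array; BBC3, which encodes the BH3-only protein PUMA, is annotated together with other genes and was not analysed here. All 31 passed the filter on low values, a mean log2 value of at least 4.83 over all 8 arrays, which 14731 genes passed.

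Cells were given doxycycline at 1 µg/ml, which shuts off TOP2A expression in this line, or dexrazoxane at 100 µM, a bisdioxopiperazine inhibitor of topoisomerase II that is not limited to the alpha form. Each treatment lasted 24 h and had vehicle-treated cells of its own. There was 1 doxycycline and 1 vehicle array, and there were 3 dexrazoxane and 3 vehicle arrays. RNA from 3 passages was pooled for every array (passages 15 to 17 in the doxycycline pair). All groups were the same tetracycline-responsive line, so the vehicle cells and the dexrazoxane cells also carried the regulated TOP2A; the labels do not say whether the line is a single clone. The labels name no separate cultures behind the array numbers, so a p-value here reflects array-to-array spread alone, and that spread may be technical.

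In the mitochondrial pathway of apoptosis, BH3-only proteins sense damage and either block the anti-apoptotic members of the BCL2 family or activate the pore-forming members BAX and BAK. The pores release cytochrome c and SMAC, cytochrome c assembles APAF1 and caspase-9 into the apoptosome, and executioner caspases then cut the cell's proteins. Death receptors reach the caspases from the cell surface through FADD and caspase-8. Much of this pathway is switched by cleavage, phosphorylation and binding of proteins that are already present, which transcript arrays do not measure; several members, among them BAX, PMAIP1 and BBC3, are also known targets of the transcription factor p53.

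The targeted gene followed the doxycycline label. TOP2A had a log2 value of 6.02 with doxycycline against 11.98 with its vehicle, a 62.1-fold drop. With dexrazoxane its mean was 10.88 ± 0.34 (SD, n = 3) against 12.45 ± 0.086 (SD, n = 3) with vehicle. That difference of -1.57 had a limma adjusted p of 0.00426 paired and 0.0949 without pairing. Of the mesenchymal markers 10 of 11 passed the filter, with VIM at a mean of 13.67. Of the other cell types' markers 2 of 6 epithelial genes passed (KRT5 5.92, CLDN4 5.82), 2 of 4 leukocyte genes (CD3E 6.72, LYZ 4.84) and 3 of 5 endothelial genes (TIE1 8.69, PECAM1 6.31, VWF 5.30), while EPCAM (3.01), CDH1 (3.68), PTPRC (3.48) and CDH5 (4.12) did not. These are means over all 8 arrays, and LYZ read only 2.93 with vehicle and 3.18 with doxycycline in the doxycycline pair. The markers' smallest adjusted p with dexrazoxane in the paired limma fit was 0.0769, for CDH2. Array medians were 4.81 and 4.82 in the doxycycline pair and 5.49 to 5.57 on the other 6 arrays, so levels are compared only within a treatment. Arrays carrying the same number deviated together from their group means, with correlations of 0.574 to 0.823, and were taken as pairs.

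With dexrazoxane none of the 31 genes of the apoptosis set passed the limma test. At an adjusted p under 0.05 the fit without pairing called 0 of 31, and 0% of all 14731 genes tested (0 genes, with 765 at an unadjusted p under 0.05). The fit that paired same-numbered arrays also called 0 of 31, 0 higher and 0 lower, where 4.87% of all genes were called, 2.42% higher and 2.44% lower. At an unadjusted p under 0.05, a looser bound, the paired fit held 7 of the 31 (22.6%), against 22.4% of all genes; 6 of them were higher and 1 lower, against 13% and 9.37% of all genes. At the same bound the fit without pairing held 2 of the 31 (6.45%), against 5.19%. The share of the set past that bound was thus near the background in each fit. The smallest adjusted p in the set was 0.0735 in the paired limma fit and 0.941 without pairing, for BAK1 in both.

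The differences themselves were small. They ran from -0.28 for MCL1 to 0.34 for BAD on the log2 scale, with a median of 0.05 beside 0.02 over all genes tested. Values were above 0 for 18 members and below 0 for 13, against 8046 and 6685 of all 14731 genes. In 15 of the 31 (48.4%) all 3 pairs had 1 direction, against 45.1% of all genes; 11 were higher in all pairs and 4 lower, against 25.7% and 19.4%. The groups were fully apart for 3 of the 31 (9.68%), against 10.1% of all genes. These were BAK1, BCL2L11 and TNFRSF1A, each with the treated arrays higher; 6.53% of all genes were apart in that direction and 3.62% in the other. The 95% interval of the paired difference lay inside 1.5-fold (0.585 on the log2 scale) in either direction for each of the 31 genes taken singly, with the farthest bounds at 0.56 for BAD and -0.49 for MCL1. Without pairing it did so for 23 of the 31. The share of all genes with such an interval was not counted. From the difference to the end of its paired interval, the median width was 0.189 in the set and 0.185 over all genes. In RNA from whole cultures, fewer cells with a transcript and less of it per cell cannot be told apart.

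**Figure D1:**
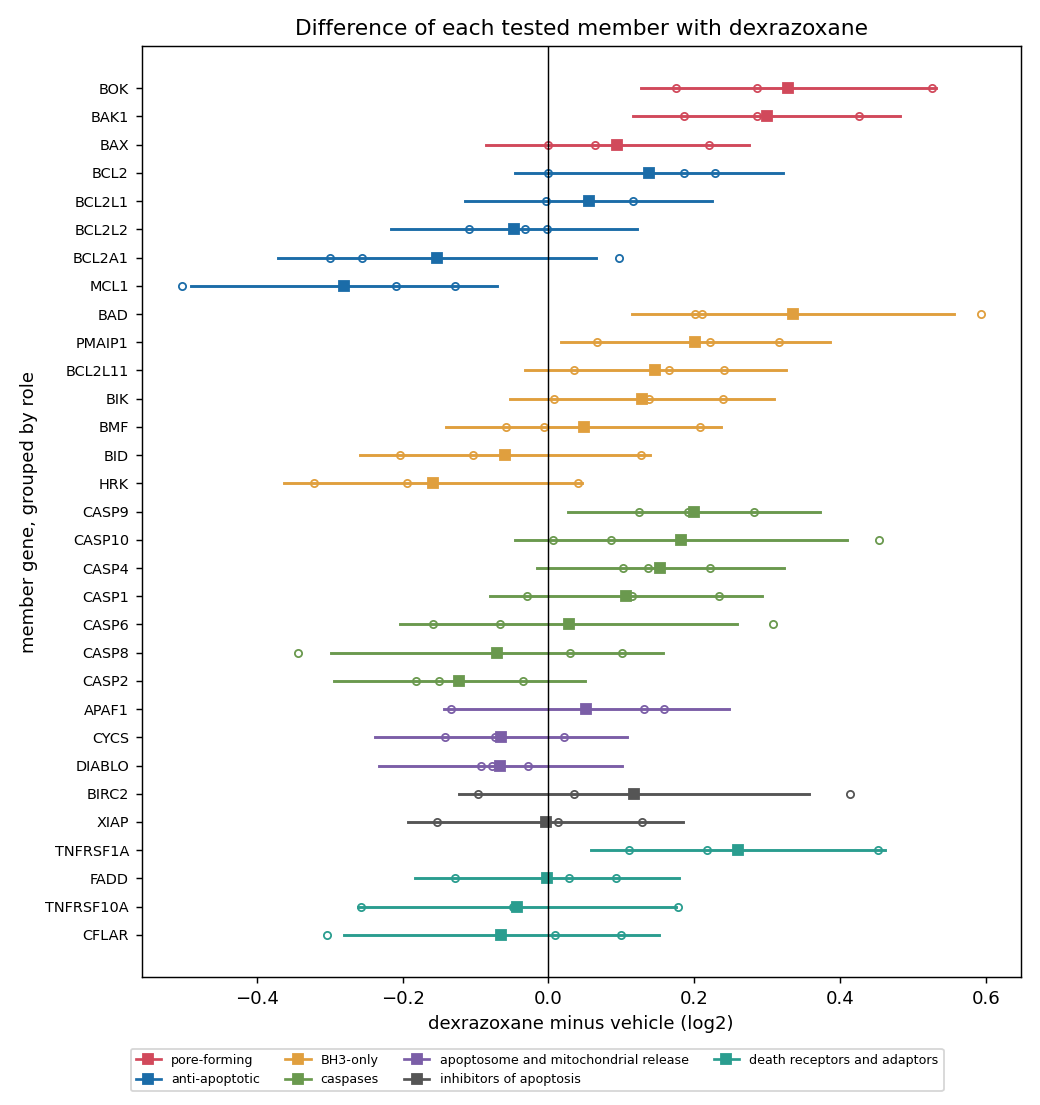
Difference between dexrazoxane and vehicle (log2, horizontal axis) for the 31 genes with a value, grouped by role on the vertical axis. Squares are means of 3 pairs, open circles the single pairs and lines the 95% intervals of the paired limma fit. The pore-forming genes all lie above 0, the other groups hold values on both sides or close to 0, and every interval ends inside 0.585 on either side.

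BAX, BAK1 and BOK encode the proteins of the family that can open pores in the outer mitochondrial membrane. All 3 had positive differences, with a group median of 0.30, and none was called. BAK1 read 7.14, 7.27 and 7.25 on vehicle arrays 1 to 3 and 7.43, 7.70 and 7.44 on the dexrazoxane arrays. Every dexrazoxane value lay above every vehicle value. The difference was 0.30 ± 0.08 (SE, paired fit) or 1.23-fold, with a limma adjusted p of 0.0735 paired and 0.941 without pairing.

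BOK, a BAK-like protein thought to act with less dependence on the other family members, read 7.95, 7.34 and 7.35 with vehicle and 8.12, 7.87 and 7.63 with dexrazoxane. Vehicle array 1 was higher than 2 of the dexrazoxane arrays, so the groups overlapped, though each pair was higher with dexrazoxane. The difference was 0.33 ± 0.09 (SE, paired limma adjusted p = 0.0748). The pairs gave 0.18, 0.53 and 0.29. In the fit without pairing, leaving out vehicle array 1 gave 0.53 and leaving out dexrazoxane array 1 gave 0.21. When 1 array of a pair is left out there, the level that the pair shares enters the difference. A second BOK probe set, the one whose identifier carries no mark for shared or cross-matching probes, differed by 0.11, with a limma adjusted p of 0.484 when it stood for the gene.

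BAX, the pore-forming member known as a p53 target, read 9.17, 9.36 and 9.77 with vehicle and 9.39, 9.43 and 9.77 with dexrazoxane. The groups overlapped almost wholly and the arrays of the third pair were equal to 2 decimals. Its difference was 0.09 ± 0.08 (SE, limma adjusted p = 0.527 paired), with a 95% interval from -0.09 to 0.28, and a second probe set gave 0.16.

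To show the DNA in front of the genes that led the set, the 250 bases before the annotated start are printed for BAK1, BOK and BAD, the 3 members with the smallest p in the paired fit, and for BAX, the best known p53 target among the pore formers. Sequences are from RefSeq, build GRCh38.p14, each read 5′ to 3′ on the strand of its gene; for BAD, which has several annotated starts, the first listed was taken. Their positions are chr6:33580277-33580526 (minus strand), chr2:241558495-241558744 (plus strand), chr11:64284705-64284954 (minus strand) and chr19:48954625-48954874 (plus strand). Capitals mark matches, on either strand, to the p53 half-site consensus, to the CCAAT box (CCAAT or ATTGG) and to the E-box CACGTG, the site of MYC-type factors.
BAK1: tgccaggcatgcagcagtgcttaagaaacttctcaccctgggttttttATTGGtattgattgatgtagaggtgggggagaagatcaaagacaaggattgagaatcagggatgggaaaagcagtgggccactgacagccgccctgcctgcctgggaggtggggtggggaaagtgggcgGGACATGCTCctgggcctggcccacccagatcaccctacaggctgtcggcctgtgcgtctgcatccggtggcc
BOK: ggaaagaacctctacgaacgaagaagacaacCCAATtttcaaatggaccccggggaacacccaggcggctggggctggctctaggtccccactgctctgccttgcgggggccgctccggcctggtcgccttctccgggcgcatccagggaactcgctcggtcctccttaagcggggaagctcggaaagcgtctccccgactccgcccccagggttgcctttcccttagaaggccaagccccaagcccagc
BAD: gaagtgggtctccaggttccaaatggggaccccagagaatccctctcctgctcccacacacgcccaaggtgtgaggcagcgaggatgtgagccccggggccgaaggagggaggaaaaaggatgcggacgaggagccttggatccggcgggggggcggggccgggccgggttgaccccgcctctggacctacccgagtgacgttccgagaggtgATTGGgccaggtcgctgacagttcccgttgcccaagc
BAX: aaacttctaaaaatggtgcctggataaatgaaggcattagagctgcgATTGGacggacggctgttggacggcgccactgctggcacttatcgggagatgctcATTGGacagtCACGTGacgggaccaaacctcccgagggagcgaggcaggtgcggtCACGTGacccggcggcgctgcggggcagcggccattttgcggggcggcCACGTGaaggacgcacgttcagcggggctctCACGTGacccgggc

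The p53 half-site matched once in the BAK1 window, starting 73 bases before the start, and not in the windows of BOK, BAD and BAX. It occurred in 3 of the 46 windows that the table holds for 26 members (those of BAK1, CASP8 and CASP9), and in 5.57% of all 35116 windows. The CCAAT box was present in all 4 printed windows, in 17 of the 46 windows of the members and in 11240 of all 35116. The BAX window held 4 copies of CACGTG, starting 138, 93, 45 and 14 bases before the start; BAX, BBC3 and BID were the members with this match, which 6.34% of all windows held. These are matches of letters, not measured binding.

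Among the anti-apoptotic genes, whose proteins hold the pore formers and BH3-only proteins in check, 2 differences were above 0 and 3 below, with a median of -0.05 and 0 of 5 called. MCL1, which encodes a short-lived guardian of BAK, had the lowest difference of the whole set. It read 11.12, 11.28 and 11.38 with vehicle and 10.91, 10.78 and 11.26 with dexrazoxane. Each pair was lower with dexrazoxane, with differences of -0.21, -0.50 and -0.13, but dexrazoxane array 3 lay above vehicle array 1. The mean difference was -0.28 ± 0.09 (SE, limma adjusted p = 0.119 paired and 1.00 without pairing). Without pair 2, which held the largest drop, it was -0.17 (adjusted p = 0.293). In the fit without pairing, leaving out dexrazoxane array 2 alone gave -0.18.

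BCL2 itself, the founding survival gene, had a mean of 6.36 ± 0.11 with vehicle and 6.50 ± 0.015 with dexrazoxane (SD, n = 3), a difference of 0.14. BCL2L1, which encodes BCL-XL, and BCL2L2, which encodes BCL-W, differed by 0.06 and -0.05. BCL2A1, an NF-kB-responsive survival gene, differed by -0.15, with 95% intervals from -0.37 to 0.07 paired and from -0.99 to 0.68 without pairing. Its own arrays were far apart: vehicle arrays 1 to 3 read 8.13, 8.56 and 9.46 and the dexrazoxane arrays 8.23, 8.26 and 9.21, so array 3 was the highest in each group.

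Of the 7 BH3-only genes with a value 5 had positive differences, with a median of 0.13, and 0 were called. BAD, whose protein is held inactive by phosphorylation and blocks BCL2 and BCL-XL when released, had the highest difference of the whole set. It read 7.45, 7.45 and 7.74 with vehicle and 7.66, 8.04 and 7.94 with dexrazoxane. Dexrazoxane array 1 was below vehicle array 3, so the groups overlapped. The difference was 0.34 ± 0.10 (SE, limma adjusted p = 0.0877 paired and 0.952 without pairing); pair 2 alone gave 0.59, and without it the difference was 0.21 (adjusted p = 0.193). A second probe set above the filter gave 0.39.

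PMAIP1 encodes NOXA, the p53-inducible partner that neutralises MCL1. It read 11.16, 11.49 and 11.47 with vehicle and 11.48, 11.56 and 11.69 with dexrazoxane. Each pair was higher with dexrazoxane, by 0.32, 0.07 and 0.22, and only dexrazoxane array 1 lay within the vehicle range. The mean difference was 0.20 ± 0.08 (SE, limma adjusted p = 0.188 paired), and the other PMAIP1 probe set gave 0.23. In the fit without pairing, leaving out vehicle array 1, the lowest, gave 0.096.

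BCL2L11, which encodes BIM, an activator of BAX and BAK, read 7.35, 7.34 and 7.15 with vehicle and 7.38, 7.50 and 7.39 with dexrazoxane. The treated arrays were all higher, by as little as 0.04 in pair 1. The difference was 0.15 ± 0.08 (SE, limma adjusted p = 0.307 paired). Without pairing, it was 0.083 when vehicle array 3 was left out. The direction depended on the probe set: of 6 above the filter 3 were above 0 and 3 below, from -0.08 to 0.35. BMF, whose protein responds to loss of cell attachment, read 6.39, 6.52 and 6.38 with vehicle and 6.60, 6.52 and 6.32 with dexrazoxane, in full overlap, for a difference of 0.05. BIK differed by 0.13, BID, which caspase-8 cleaves to link death receptors to mitochondria, by -0.06, and HRK by -0.16. All 3 BID probe sets were below 0, down to -0.24.

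**Figure D2:**
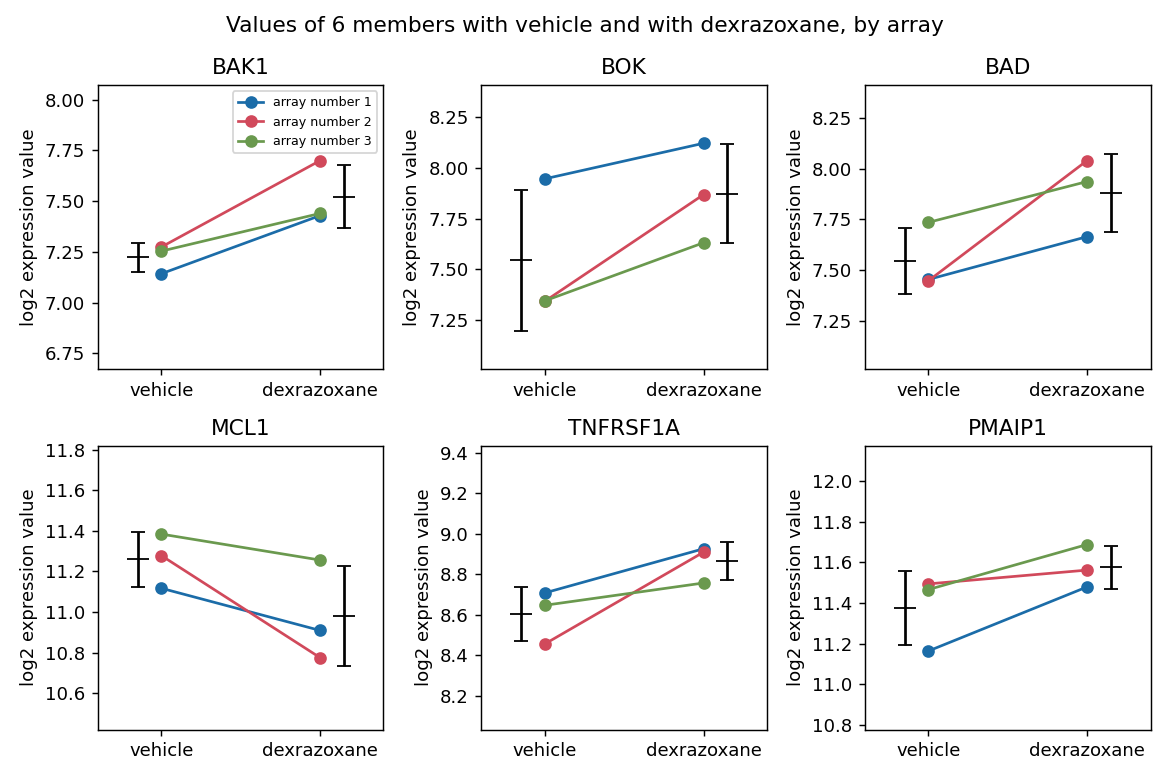
Log2 expression values (vertical axes, all of equal span) of 6 genes with vehicle and with dexrazoxane, 1 line for each numbered pair of arrays; black marks are the mean and SD of 3 arrays. Lines slope up in each pair for BAK1, BOK, BAD, TNFRSF1A and PMAIP1 and down in each pair for MCL1, while the groups overlap in all but BAK1 and TNFRSF1A.

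Caspases are the proteases of the pathway, and 0 of the 7 measured were called, with a median difference of 0.11. CASP9, the initiator caspase of the apoptosome, read 7.15, 7.24 and 7.27 with vehicle and 7.27, 7.43 and 7.56 with dexrazoxane. The arrays touched at 7.27, where the lowest treated value fell just within the vehicle range. The difference was 0.20 ± 0.08 (SE, limma adjusted p = 0.166 paired), and a second probe set gave 0.18. Without pairing, the difference was 0.13 when dexrazoxane array 3 was left out.

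CASP10, an initiator recruited by death receptors, read 5.59, 6.07 and 6.24 with vehicle and 6.04, 6.08 and 6.33 with dexrazoxane, and the groups overlapped. Its difference of 0.18 rested on pair 1 (0.45, beside 0.01 and 0.09). CASP4, an inflammatory caspase that senses bacterial lipopolysaccharide, read 7.92, 8.34 and 8.59 with vehicle and 8.15, 8.48 and 8.69 with dexrazoxane, overlapping, for a difference of 0.15 ± 0.07 (SE, limma adjusted p = 0.265 paired). Its second probe set gave -0.05. CASP1, the caspase that matures interleukin-1 beta, read 6.20, 6.68 and 6.69 with vehicle and 6.32, 6.65 and 6.93 with dexrazoxane, overlapping, for a difference of 0.11. CASP6, an executioner, differed by 0.03, CASP8, the initiator of the death receptor pathway, by -0.07, and CASP2, a caspase linked to DNA damage and cell division errors, by -0.12. CASP2 was below 0 on all 6 of its probe sets above the filter, from -0.20 to -0.01.

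At the apoptosome, APAF1, which forms its scaffold and is a known target of p53 and E2F1, differed by 0.05. CYCS, which encodes cytochrome c, and DIABLO, which encodes the IAP antagonist SMAC, differed by -0.06 and -0.07. The paired 95% intervals of these 3 genes ran from -0.24 at the lowest to 0.25 at the highest. CYCS varied little, with means of 12.82 ± 0.024 with vehicle and 12.76 ± 0.090 with dexrazoxane (SD, n = 3). Of the inhibitors of apoptosis, XIAP, which binds caspases directly, differed by -0.0039 and BIRC2, which encodes the ubiquitin ligase cIAP1, by 0.12. The 7 XIAP probe sets above the filter ran from -0.09 to 0.33, 4 of them above 0 and 3 below. BIRC2 on array 1 stood above arrays 2 and 3 in both groups, at 11.11 with vehicle and 11.52 with dexrazoxane, against 10.55 to 10.64 on the others.

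Among the death receptor genes 1 difference was above 0 and 3 were below. TNFRSF1A, the main receptor for tumour necrosis factor, read 8.71, 8.46 and 8.65 with vehicle and 8.93, 8.91 and 8.76 with dexrazoxane. All dexrazoxane values were above all vehicle values, by 0.26 ± 0.09 on average (SE, limma adjusted p = 0.128 paired and 1.00 without pairing). Pair 2 gave 0.45, and without it the difference was 0.16 (adjusted p = 0.312). The adaptor gene FADD differed by -0.0021, CFLAR, which encodes the caspase-8 inhibitor cFLIP, by -0.06, and TNFRSF10A, a receptor for TRAIL, by -0.04. TNFRSF10A read 5.61, 6.06 and 5.69 with vehicle and 5.57, 5.81 and 5.87 with dexrazoxane, in full overlap.

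The lack of calls depended on how the variance was modelled. With a trended and robust prior variance the paired limma fit called 12.5% of all genes, and 6 of the 31 members: BAK1, BOK, BAD, PMAIP1 and TNFRSF1A higher and MCL1 lower, at adjusted p-values of 0.0111 for MCL1 to 0.0429 for TNFRSF1A. With the filter at the 60th percentile, which tests fewer genes, it called BAK1 (0.0458) and BOK (0.0490) among 27 members, with 9.60% of all genes called.

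The genes of the set are covered by 104 probe sets, of which 85 passed the filter. Tested singly over all 41097 probe sets with 1 symbol, 0 of the 104 were called by limma in the paired fit and 0 without pairing, where 153 and 1 of all were. At an unadjusted p under 0.05 the paired fit held 16 of the 104 (15.4%), against 14.7% of all probe sets. Of the 21 members with more than 1 probe set above the filter, 12 had all of them on 1 side of 0. BAD, PMAIP1, CASP9 and BAX were above 0 on each of their 2, and CASP8 and BCL2L2 below 0 on each of theirs. CFLAR was split 6 above to 5 below and XIAP 4 to 3. For MCL1, 5 of 6 were below 0, but 3 of its dimmer probe sets swung between pairs: 1 of them differed by -1.48 in pair 2 and by 0.91 in pair 3, while the brightest MCL1 probe set differed by -0.50 and -0.13. The second brightest differed by -0.24 and was not called, but was lower in each pair with the groups fully apart.

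**Figure D3:**
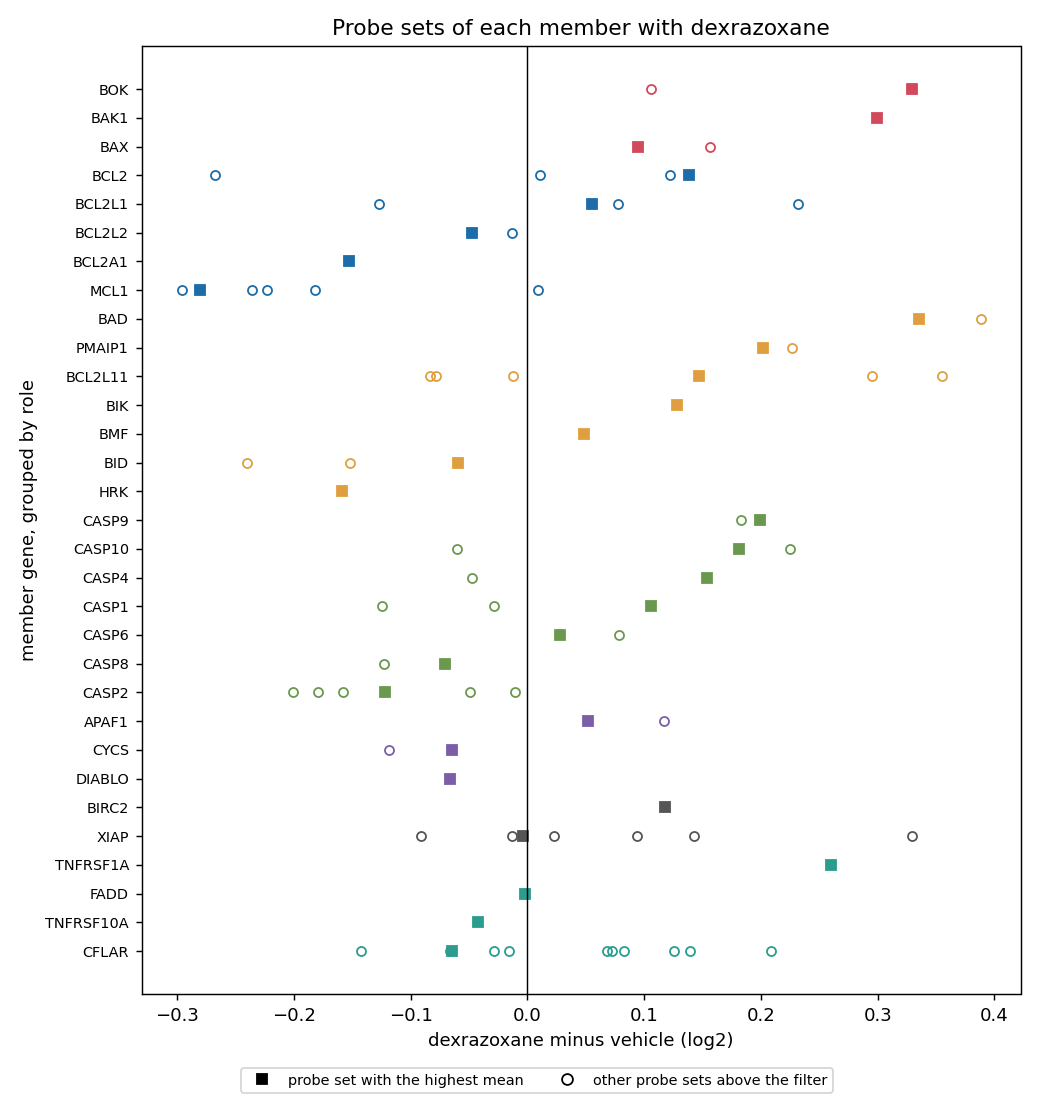
Difference between dexrazoxane and vehicle (log2, horizontal axis, means over 3 and 3 arrays) for each of the 85 probe sets above the filter, 1 row per gene. Filled squares stand for the gene in the text and open circles are its other probe sets. BCL2L11, CFLAR, XIAP, BCL2 and BCL2L1 have probe sets on both sides of 0, while those of BAD, PMAIP1, CASP9 and CASP2 lie on 1 side.

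In the doxycycline pair, 0 of the 31 apoptosis genes differed by 1.5-fold, where 0.129% of all genes did. With 1 array in each group there is no test and no error, and every value here is the difference of 2 arrays. Differences ran from -0.22 to 0.30, with a median of 0.05 beside 0.02 over all genes, and 28 of the 31 (90.3%) were smaller than 0.2 in size, as were 86.7% of all genes. Members above 0 numbered 20 (64.5%), against 54.4% of all genes, each by its brightest probe set. Of the 21 members with more than 1 probe set above the filter, only 5 had all of them on 1 side of 0. The SD of the differences was 0.10 over the set and 0.15 over all genes, TOP2A included.

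CASP1 had the largest difference, at 6.04 with doxycycline and 5.74 with vehicle (0.30). Another CASP1 probe set above the filter went the other way (-0.23), so the sign was not shared within the gene. TNFRSF10A read 4.63 with doxycycline and 4.84 with vehicle, a difference of -0.22 near the filter. BCL2L11 read 6.61 and 6.82, a difference of -0.21, and 5 of its 6 probe sets above the filter were below 0, the exception being 0.21. BMF, a BH3-only gene, read 5.72 and 5.58, a difference of 0.14, close to that of BAD (0.14).

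By their brightest probe sets, the pore-forming and survival genes stood close to their vehicle values. BAX differed by 0.05, BAK1 by -0.04 and BOK by 0.11. MCL1 differed by -0.01, BCL2L1 by -0.02, BCL2 by 0.12, BCL2L2 by 0.09 and BCL2A1 by -0.09. Other probe sets above the filter lay further out. For MCL1 5 of 6 were above 0, up to 0.27, and for BCL2L1 3 of 4, up to 0.21, the brightest being the exception in each. PMAIP1 read 10.74 and 10.68, a difference of 0.07, although its second probe set gave -0.28. Of the 7 caspase genes 6 were above 0, against 54.4% of all genes. CASP10 had the same value on both arrays, as 9.62% of all probe sets did in this pair. The count of 6 depended on the probe set: CASP4 (0.01) and CASP9 (0.09) each had a second one above the filter further from 0 and below it, at -0.31 and -0.30.

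The genes that led with dexrazoxane were set side by side with their doxycycline values. BAK1 had differences of 0.30 and -0.04, BOK of 0.33 and 0.11, BAD of 0.34 and 0.14, TNFRSF1A of 0.26 and 0.04 and MCL1 of -0.28 and -0.01. They were chosen by their dexrazoxane values, so a larger size there may come from the choice alone. Over all genes the median size was 0.10 with dexrazoxane and 0.08 with doxycycline, which BOK and BAD exceeded in both by their brightest probe sets. The other BOK probe set gave 0.11 with dexrazoxane and -0.04 with doxycycline. BCL2L11 was 0.15 with dexrazoxane and -0.21 with doxycycline, but -0.08 and 0.21 on the brightest of its probe sets that carry no mark. The treatments had vehicle arrays of their own, and the difference between them was not tested.

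**Figure D4:**
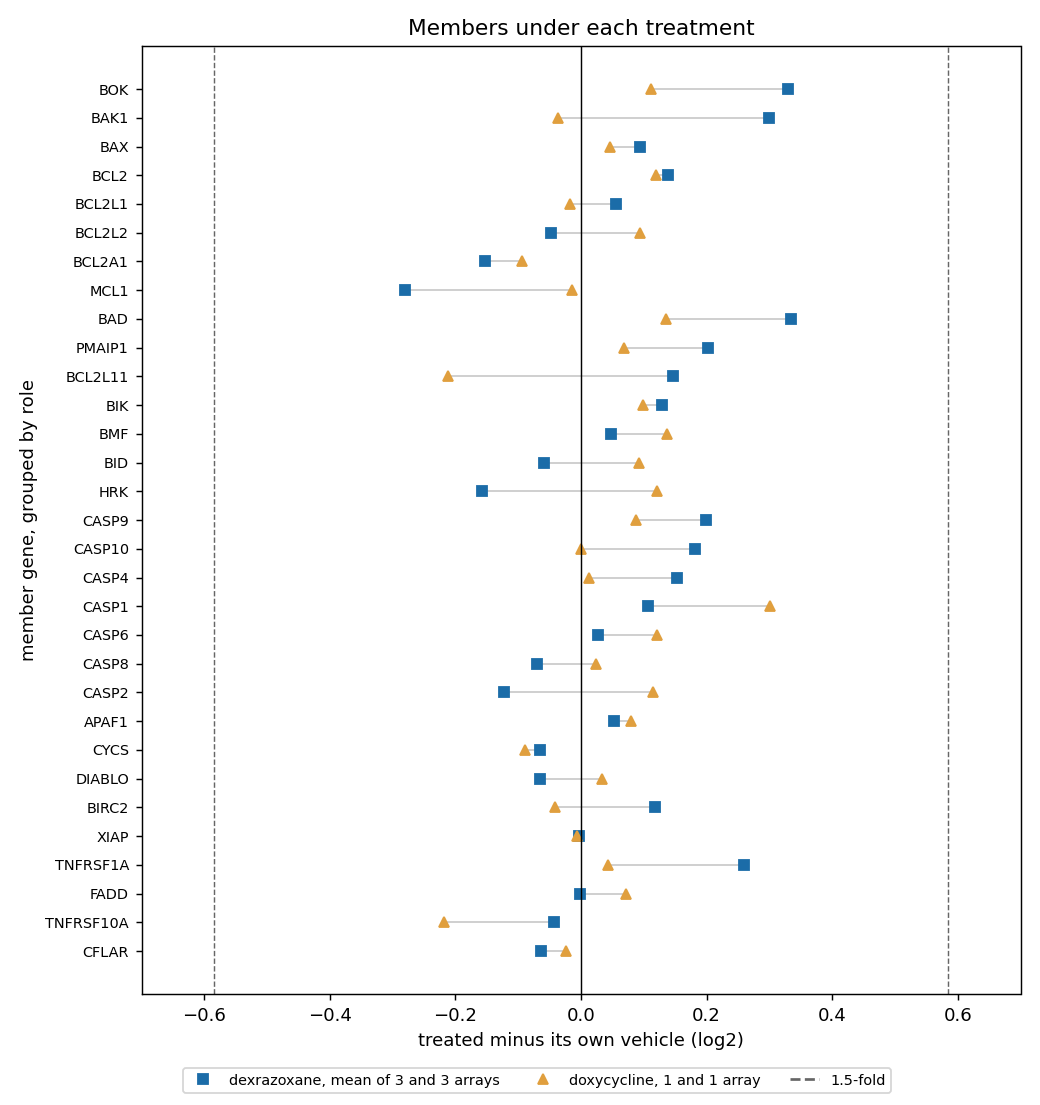
Difference of each treatment from its own vehicle (log2, horizontal axis) for the 31 genes, grouped by role; squares are dexrazoxane (means of 3 and 3 arrays) and triangles doxycycline (1 and 1 array). All markers lie inside the dashed lines at 1.5-fold (0.585), and the widest, BAD at 0.34 and CASP1 at 0.30, reach a little past the middle of that range.

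Beyond the set, 62 further genes of the apoptosis and cell death machinery were listed, of which 51 were tested; 6 were below the filter and 5 were not analysed here. The paired limma fit called 2 of the 51 (3.92%, against 4.87% of all genes), and the fit without pairing called 0. PERP, a p53 effector at desmosomes, rose: it read 11.69, 11.79 and 11.62 with vehicle and 12.08, 12.17 and 12.01 with dexrazoxane. The groups did not overlap and the pairs were alike, at 0.38, 0.38 and 0.40 (0.39 ± 0.07, SE, limma adjusted p = 0.0277 paired and 0.908 without pairing). PAWR, which encodes the pro-apoptotic protein PAR-4, fell by 0.47 ± 0.10 (SE, limma adjusted p = 0.0359 paired and 0.982 without pairing). It read 10.20, 9.81 and 10.05 with vehicle and 9.93, 9.09 and 9.63 with dexrazoxane, lower in each pair, while the groups overlapped. The pairs gave -0.27, -0.72 and -0.42. In the fit without pairing, leaving out dexrazoxane array 2, the lowest, gave -0.24.

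The next in order were not called in the paired limma fit. RIPK2, the kinase that serves the NOD receptors, differed by 0.31 (adjusted p = 0.0582), with overlapping groups. Its pairs gave 0.31, 0.23 and 0.37. Without pairing, leaving out vehicle array 1 gave 0.18 and leaving out dexrazoxane array 3 gave 0.15. BAG1, a co-chaperone that binds BCL2, differed by 0.32 (0.0597) and MOAP1, a BAX-binding protein, by 0.31 (0.0644), both with the groups apart. With doxycycline, PERP differed by -0.07, PAWR by -0.07, RIPK2 by 0.11, BAG1 by 0.28 and MOAP1 by 0.04, and 0 of the 51 reached 1.5-fold. PERP lost its call without pair 1 (0.110), without pair 3 (0.0915), with the mean of its probe sets (0.25, 0.0641) and with probe sets that carry no mark (0.0654). PAWR lost its call without pair 1 (0.0680), with no filter (0.0525) and with the mean of its probe sets (-0.18, 0.163).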

How the data were processed

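Expression was measured on 8 Affymetrix arrays of HTETOP cells. The deposited log2 values were made by the authors with RMA, per the submitters' processing notes, which corrects background, equalises the arrays and summarises probe sets; its version, and whether all arrays went through it together, are not given in the sources used here. Precision is limited by the number of arrays.

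Gene names came from the array's platform annotation: 41097 probe sets carried 1 symbol, 1801 several and 11777 none. Symbols were updated through Entrez identifiers (41043 matched) to the RefSeq gene table of GRCh38.p14. The brightest probe set stood for its gene, and genes with a mean at or above the 40th percentile of all probe sets were tested. Dexrazoxane was compared with vehicle with the functions lmFit and eBayes of limma 3.58.1 under R 4.3.3. Tests were two-sided with Benjamini-Hochberg adjustment over all genes tested and a bound of 0.05, without a block and with the replicate number as a block. Deviations from group means correlated at 0.823, 0.574 and 0.716 between same-numbered arrays. The pairing was checked on the same data and is not stated in the labels.

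Genes given by array were the members with the 10 smallest p in the paired fit, the 4 largest doxycycline differences, and BAX, BBC3, PMAIP1 and MCL1 in any case (BBC3 had no value); of the further pathway genes, those called are given by array and the rest of the 5 with the smallest p by their difference. BCL2A1 and BIRC2 array values were added after they were seen. The members and lists were chosen with earlier results of these data known. Alternatives covered the filter, the choice of probe set, centring, quantile normalization, the prior variance and leaving out arrays.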

Additional observations from a re-analysis of the deposited data

How the results depend on the processing

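Without the block, the count of all genes called with dexrazoxane stayed at 0, or became 1 with probe sets that carry no mark, with trended and robust variance and with every probe set on its own; leaving out 1 array gave 0 to 1. With the replicate block it was 717. Added to the block, no filter gave 425, the filter at the 60th percentile 1065, the mean of probe sets 687, unmarked probe sets 565, centring each array on its median 737, quantile normalization 583, trended and robust variance 1844, and every probe set on its own 153. The block without pair 1, 2 or 3 gave 98, 830 and 411. The 2 changes of filter alter how many genes the adjustment covers. So do the mean of probe sets (13369), unmarked probe sets (13938), quantile normalization (14740) and every probe set on its own (41097). What moved the count under each setting was not tested. Members called with dexrazoxane went from 0 to 2 when the block was joined with the stricter filter, and to 6 when it was joined with trended, robust variance, and were 0 under the other settings. Testing every probe set on its own was chosen after seeing the data.

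Genes at least 1.5-fold apart with doxycycline numbered 19, and 42 with no filter, 2 at the 60th percentile filter and 8 after quantile normalization, with 0 members under each setting run. Signs turned for small differences, none of them called. With and without the block, CASP1 was -0.0073 with the mean of probe sets, and CASP4 was -0.048 and BCL2L11 -0.083 with unmarked probe sets, which also turned the doxycycline difference of BCL2L11 to 0.21. Leaving out 1 array was done without the block, so a level shared by its pair enters the difference. It gave ranges of -0.027 to 0.31 for CASP4, -0.0088 to 0.32 for CASP10, -0.055 to 0.26 for CASP1, -0.038 to 0.26 for BAX, -0.011 to 0.13 for BMF and -0.13 to 0.094 for TNFRSF10A. CASP4, CASP10 and BAX were above 0 in all 3 pairs, BAX in the third by only 9.9e-05. With the block, BMF was -0.032 without pair 1 and TNFRSF10A 0.065 without pair 2. Named members, the further pathway genes given above and TOP2A had 491 values under alternatives, each set against the fit without the block. Of these, 428 stayed on the same side of 0 and, for dexrazoxane, of the threshold. Another 45 passed the threshold and 18 turned sign. Doxycycline values were judged by sign alone.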
